A study of Oryza sativa with 19 samples.

Results

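The probes described here mark rice cDNA loci that read higher in shoot and in panicle than in root and in callus. A probe was taken when 3 conditions on its measured level held in Nipponbare, a japonica rice variety (NB). The lower of the NB shoot and NB panicle means had to lie 3 or more above the higher of the NB root and NB callus means on the log2 scale, shoot and panicle had to lie less than 3 apart, and the probe had to belong to the cDNA set, whose names end in _C or start with E5_. This gave 118 probes of 33360 cDNA probes (0.354%) and of 84068 non-control probes in all, with 67 on the array design S1 and 51 on the design S2. They came from 92 of 20404 cDNA loci (0.451%), and several probes of 1 locus share their target. Of the 118 members, 80 had names ending in _C and 38 had names starting with E5_. Throughout, the level of a probe is log2 of its processed signal after each array and channel was scaled to a median of 1000 and capped at 100000, with both channels averaged, so that the cap lies at 16.61. The distance between the lower of shoot and panicle and the higher of root and callus is called the margin.

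The RNA came from 5 groups, each with 2 replicate arrays on each design except NB panicle, which had 2 on S1 and 1 on S2. NB shoot and IR64 shoot (an indica rice) were grown in soil in a greenhouse under natural light, NB root in hydroponic culture with 16 h of light per day at 28 °C, and NB callus for 28 days under 24 h of light per day at 30 °C. NB panicle came from the field, at the late-boot stage per the study's methods, in which the inflorescence is still inside the leaf sheath, and it was given no age. No group carried a transgene or a drug treatment, although the callus medium held the auxin 2,4-D per the methods. Shoots and roots are both labelled as 10 days old, whereas by the methods the shoots came from older seedlings than the roots. The tissues thus also differed in age, light and place of growth, and these cannot be told apart from tissue. The labels give one extraction kit for IR64 shoot and another for every NB tissue, while the methods give one kit for all shoots. By the methods RNA of several plants was pooled and hybridised repeatedly, so the spread between replicates may be technical only. Each array was hybridised with the same RNA in both channels.

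Shoots of a grass seedling are mostly leaf blades and sheaths, and a panicle in the boot holds branches, spikelets with green glumes, and developing anthers and ovaries. Leaves and green floral organs both build chloroplasts and a waxy surface, whereas roots do neither to any extent and callus is unorganised tissue. Genes of photosynthesis are the textbook case of a set that is shared by green organs and low in roots and in callus. The members could not be assigned such roles, because none of the 210 probe and locus names looked up was found among the 39387 genes of the reference table. No probe sequence was used here. The members are therefore named by locus, in which R03-00279F stands for chromosome 3, locus number 279 and a closing F or R. For the same reason the tissue labels could not be checked against defining marker genes. A tissue holds many cell types, and in such bulk RNA fewer cells of a type and less RNA per cell cannot be told apart.

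Among the S1 arrays the median background-subtracted signal lay between 54.8 and 167.2, and among the S2 arrays between 37.5 and 178.7. Detection here means that both channels of an array were well above background. Between 73.2% and 88.3% of probes were detected on an S1 array and between 66.4% and 88.8% on an S2 array. The 2 IR64 shoot arrays of a design stood apart for the members, with replicate 2 the brighter in 81 members and replicate 1 in 3. The same count was 46 against 36 in NB shoot, 84 against 34 in NB root and 85 against 33 in NB callus.

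**Figure D1:**
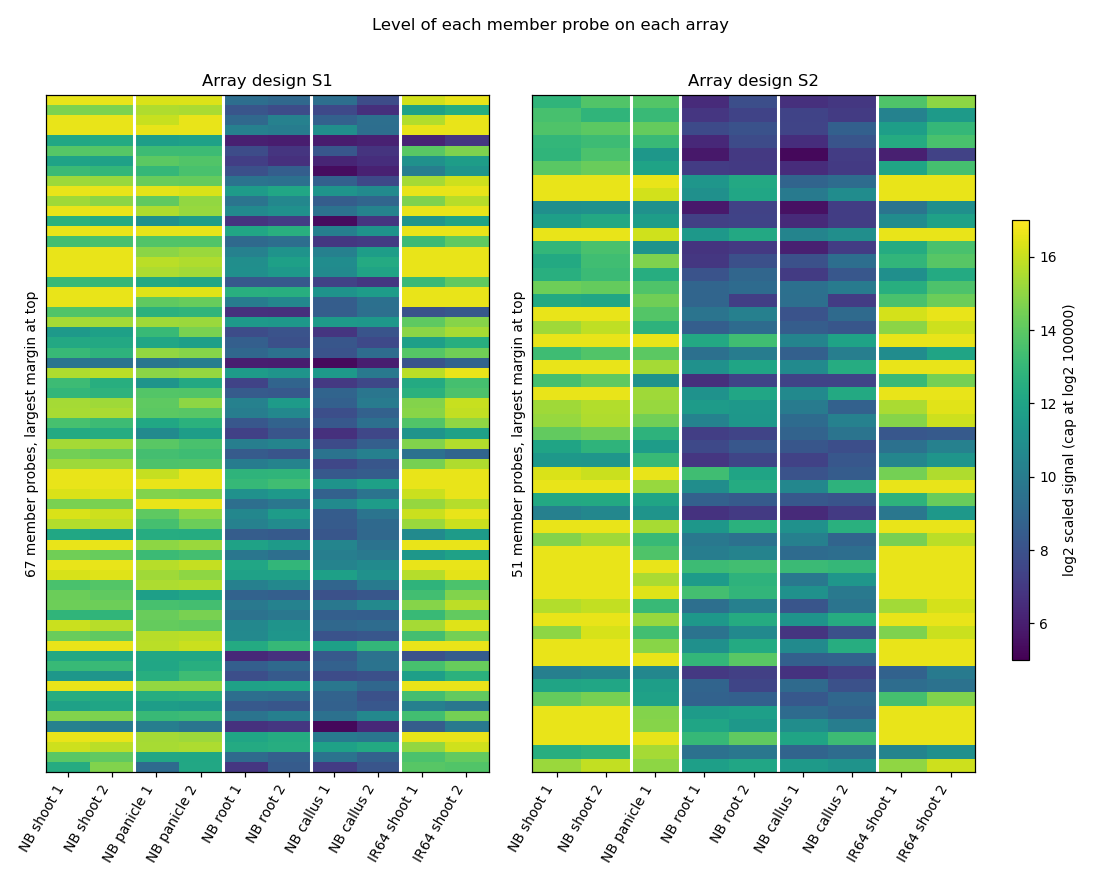
Level (log2 scaled signal) of each of the 67 members on S1 and the 51 on S2, 1 row per probe ordered by margin and 1 column per array. Shoot and panicle columns are brighter than root and callus columns in every row, where the selection acted on group means only. A few IR64 shoot rows are as dim as root and callus.

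The rule set a difference between tissues and no level, and the levels of the members varied widely. Their NB shoot means ran from 9.62 to 16.61 with a median of 14.85, against a median of 11.03 over all cDNA probes. In NB panicle they ran from 9.91 to 16.61 with a median of 14.05, against 11.36 over all cDNA probes. In NB root their median was 9.69 and in NB callus 8.95, against 11.30 and 11.34. Single members went the other way, as 4 lay below the cDNA median in NB shoot and 10 in NB panicle, while 35 lay above it in NB root and 17 in NB callus. All 118 members were detected on every shoot and panicle array, while 85 were detected on every root array, 81 on every callus array and 73 on every root and callus array. Most members thus had a measurable level in root and callus, and 12 were detected on no array of either tissue.

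Because the members were chosen by these levels, the size of the margin is a description and carries no test. The margin ran from 3.01 to 7.15 with a median of 3.56, which is an 11.8-fold difference. It reached 4 in 31 members, 5 in 10 and 6 in 5. In the fit over all probes, NB shoot was called higher than NB root in 118 members beside 8.04% of all tested probes, and higher than NB callus in 118 beside 10.7%. NB panicle was called higher than NB root in 108 members beside 4.62% of tested probes, and higher than NB callus in 113 beside 6.61%. These are the contrasts that chose the members. The lowest shoot or panicle array lay above the highest root or callus array in all 118 members, with a smallest gap of 0.73.

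The locus with the largest margin was R03-00279F on chromosome 3, with a margin of 7.15. Its probe R03-00279F_C read 16.60 and 16.58 in NB shoot and 16.33 and 16.37 in NB panicle. It read 9.34 and 9.05 in NB root and 9.38 and 7.78 in NB callus. Both bright tissues were thus close to the cap, the dim ones near the level of a weak probe, and no array of one set came near the other.

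The probe R08-00370F_C, on chromosome 8, had a margin of 6.64. It read 14.61 and 14.63 in NB shoot, 15.58 and 15.50 in NB panicle, 8.17 and 7.80 in NB root and 7.67 and 6.63 in NB callus. Panicle was above shoot on every array, and root and callus were detected on 1 of 2 arrays each. On chromosome 6, R06-00305R_C stood at the cap on both NB shoot arrays and on 1 of 2 panicle arrays, and read 9.04 and 10.27 in root and 8.75 and 9.40 in callus. R09-00467F_C, with a margin of 6.43, was likewise at the cap in shoot, and read 10.23 and 10.05 in root and 10.95 and 9.34 in callus. For both loci the cap limits the size of the margin.

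R04-00817R_C, a probe of S2 with a margin of 6.10, lay well below the cap. It read 12.83 and 13.72 in NB shoot and 13.77 on the single panicle array, and 6.49 and 7.87 in root, where it was not detected on either array. Shoot was at least 49.8-fold and panicle at least 70.1-fold above root, where the bound sets the brighter mean against the higher of the probe's own dim value and the lowest detected level of each array. R03-01172F_C (margin 5.89) was at least 46.4-fold higher in shoot and at least 45.3-fold higher in panicle than in root. R03-00894F_C (margin 5.74) was detected on no root or callus array. It read 12.96 and 13.23 in shoot and 13.13 in panicle, which put shoot at least 43.9-fold above root and at least 48.8-fold above callus. R01-00923F_C (margin 5.70) read 13.84 and 13.85 in shoot and 13.25 and 13.22 in panicle, at least 81.7-fold and at least 53.5-fold above root. R05-00007R_C (margin 5.80) and R07-00710R_C (margin 5.77) complete the 10 loci with the largest margins. R05-00007R_C read 12.16 and 12.34 in shoot, 11.71 and 11.89 in panicle and between 5.89 and 6.10 on the 4 root and callus arrays. The lowest levels detected on these arrays ran from 6.63 to 7.29, so R05-00007R_C was detected on none of them. Its margin of 5.80 thus rests on dim values below detection. R07-00710R_C read 13.69 and 13.97 in shoot and 14.17 in panicle, and 7.69 and 8.03 in root.

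At the other end, the members nearest the threshold were E5_03564 (margin 3.01), R07-00707R_C (3.01) and E5_07955 (3.02). The cDNA probes just outside it, with shoot and panicle less than 3 apart, were R03-00002R_C (2.99), R07-00678F_C (2.98) and R04-00411F_C (2.97). E5_03564 had the widest spread between replicates of all members. It read 12.36 and 14.75 in NB shoot and 9.19 and 12.17 in NB panicle, and its lowest bright array lay only 0.73 above its highest dim array. A further 17 cDNA probes passed the margin but had shoot and panicle 3 or more apart, 13 of them the brighter in shoot and 4 in panicle.

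Root and callus were not equally dim. Of the 118 members, 85 (72.0%) had a higher mean in root than in callus, beside 47.1% of all cDNA probes, and 18 differed by 2 or more in that direction against 2 in the other. The widest case was R03-01080R_C, which read 12.95 and 13.94 in NB root and 8.69 and 8.78 in NB callus while shoot and panicle were at the cap. E5_08986 read 12.83 and 12.86 in root and 8.35 and 8.56 in callus. For such loci root is the tissue that sets the margin, and callus lies far below it. The opposite order was seen in R07-00219R_C, which read 6.40 and 6.73 in root and 8.37 and 9.53 in callus. These probes were singled out here after their values were seen.

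The selection bounded the difference between NB shoot and NB panicle to less than 3 but not its direction. The mean was higher in shoot in 87 members and higher in panicle in 27, with a median difference of 0.61 and a range from -2.77 to 2.94. The difference was under 1 in 61 members, 1 or more toward shoot in 45 and 1 or more toward panicle in 12. The cap bears on this, because 36 members were at the cap on every NB shoot array and 6 on every NB panicle array. Of the 80 members at the cap on no shoot or panicle array, 55 were higher in shoot and 25 in panicle. In the limma fit with Benjamini-Hochberg adjustment over all probes, 20 members from 15 loci were called higher in shoot and 9 from 8 loci higher in panicle, and 89 were called in neither direction. Of all tested probes, 6.35% were called higher in shoot and 9.53% higher in panicle. Since the rule used both groups, the counts only describe the members.

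**Figure D2:**
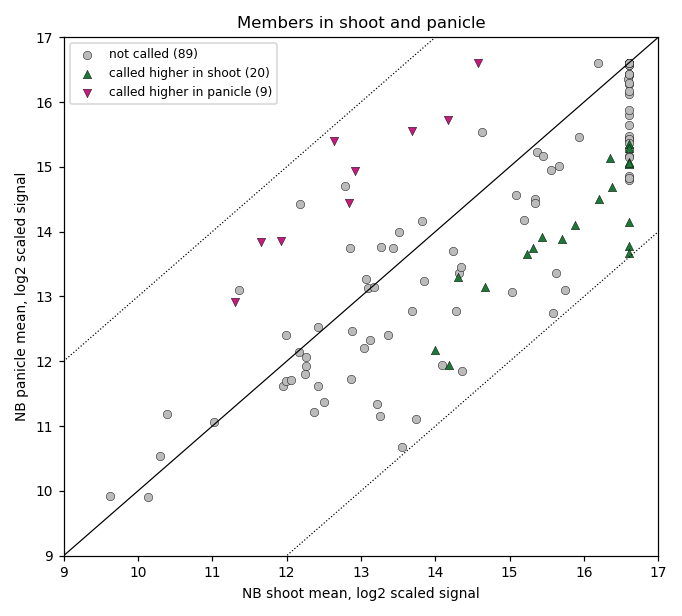
NB shoot mean against NB panicle mean (log2 scaled signal) of the 118 members, with the line of equal level and dotted lines 3 apart. The column of points at the right edge holds the 36 members at the cap on every NB shoot array, and the called members (20 toward shoot, 9 toward panicle) lie on both sides of the line.

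The members that leaned most to panicle were E5_12725, R02-00909F_C, E5_07139 and R12-00032F_C. E5_12725, a probe of locus R01-00525R, read 12.53 and 12.75 in NB shoot and 15.41 on the 1 panicle array, a difference of -2.77. R02-00909F_C read 12.29 and 12.09 in shoot and 14.42 in panicle. R12-00032F_C read 14.58 and 14.57 in shoot and stood at the cap on both panicle arrays, so that its difference of -2.04 is limited by the cap. No shoot array of these 3 loci reached its panicle level.

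The members that leaned most to shoot were R07-00378F_C, E5_03564, R01-00318R_C and R06-00741F_C. R07-00378F_C stood at the cap on both NB shoot arrays and read 13.67 on the panicle array, so that their difference of 2.94 is limited by the cap. R06-00741F_C was also at the cap in shoot and read 13.78 in panicle, a difference of 2.83. R01-00318R_C read 15.31 and 15.85 in shoot and 12.74 in panicle. These extremes were picked from the difference itself, and those on S2 rest on 1 panicle array, so no test is given for them. Without the cap the 36 members at the cap in NB shoot were all higher in shoot than in panicle, by 0.90 to 4.49 with a median of 2.64, and 22 of them were called in place of 8. Leaving out the cap thus raised the count of members called in either direction from 29 to 45. On S1 26 of 67 members were called and on S2, with 1 panicle array, 3 of 51, with median standard errors of 0.39 and 0.68. Of all 36868 tested probes on S1, 4030 were called higher in shoot and 6090 higher in panicle. Of the 36117 on S2 these counts were 604 and 862, so calls were fewer on S2 over all probes too. Standard errors were also larger on S2 between the shoots, where both designs have 2 arrays per group, with medians of 0.55 against 0.39. Leaving out NB shoot replicate 1 gave 10 calls in place of 29, leaving out NB shoot replicate 2 gave 9, and leaving out NB panicle replicate 2 gave 14. Without NB panicle replicate 1 S2 has no panicle array, and the count on S1 fell from 26 to 13.

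IR64 shoot entered no part of the rule. The NB tissues to which it is compared did, with NB shoot chosen to be high and NB root and NB callus to be low. Most members were bright in IR64 shoot too. Their IR64 shoot median was 15.11 beside 14.85 in NB shoot, and 113 of 118 (95.8%) were detected on both IR64 arrays, beside 79.7% of all cDNA probes. Of the 565 cDNA probes that were 3 or more above every other NB tissue in NB shoot, 98.9% were detected on both IR64 arrays. The IR64 mean lay 3 or more above the higher of NB root and NB callus in 97 members (82.2%), beside 2.71% of all cDNA probes, with a median distance of 4.62. Since root and callus were chosen to be low, this share is in part set by the selection and only describes the members. The IR64 mean lay below the higher of the 2 in 4 members. In 90 members the varieties differed by less than 1. IR64 shoot was lower by 1 or more in 21 members (17.8%), beside 6.67% of all cDNA probes. It was higher by 1 or more in 7 (5.93%), beside 1.79%. The values themselves set a limit here, as 34 members were at the cap on all 4 shoot arrays. Without the cap these 34 differed between the varieties by -1.17 to 0.52, with a median of -0.03, and none was called.

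A few loci differed widely between the varieties. In the limma fit 10 members from 8 loci were called lower in IR64 shoot than in NB shoot (8.47%), beside 1.35% of all tested probes and 1.78% of tested cDNA probes. A single member, 1 of 118 (0.847%), was called higher, beside 0.381% of all tested probes and 0.320% of tested cDNA probes. Of the 565 cDNA probes that were 3 or more above every other NB tissue in NB shoot, which were chosen for a high NB shoot level in the same way, 5.13% were called lower in IR64 shoot, and the difference from the share of members was not tested. All 11 called members kept their direction within the scan date that the replicate 2 arrays of both shoots share. Those arrays also entered the fit that gave the calls, so this is no separate check of them. At an unadjusted limma p below 0.05 the counts were 20 lower (16.9%) and 6 higher (5.08%), beside 4.69% and 2.23% of all tested probes. The count of 10 fell to 5 without NB shoot replicate 1, to 5 without NB shoot replicate 2, to 6 without IR64 shoot replicate 1 and to 4 when only the shoots were fitted. The 1 higher call was lost when only the shoots were fitted and when either NB shoot replicate or replicate 2 of IR64 shoot was left out. The probes were designed on Nipponbare sequence, so weaker binding to IR64 transcripts and a lower transcript level cannot be told apart, and by the labels neither can the extraction kit.

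**Figure D3:**
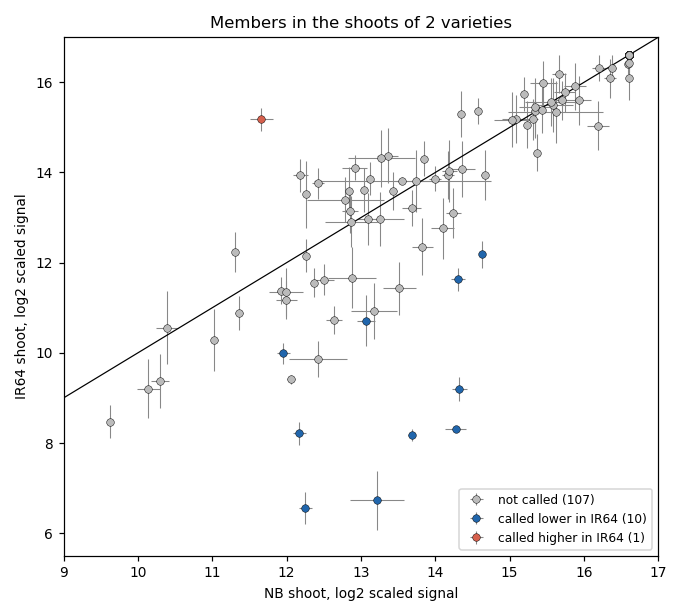
NB shoot level against IR64 shoot level (log2 scaled signal) of the 118 members, with points at the mean of the 2 arrays and bars reaching to both arrays. Most points lie along the line of equal level, 10 called members lie below it by 1.96 to 6.49, and 1 called member lies above it by 3.52.

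The widest difference was at R11-00318R on chromosome 11. R11-00318R_C read 12.85 and 13.58 in NB shoot and 11.33 in NB panicle, and 6.07 and 7.39 in IR64 shoot, where it was detected on neither array. IR64 shoot was thus as dim as NB root (5.76 and 6.98) and NB callus (5.24 and 7.14). NB shoot was at least 37.4-fold higher than IR64 shoot (measured difference -6.49 ± 0.78 SE, limma adjusted p = 0.017). R05-00007R_C, on chromosome 5, showed the same picture on the other design. It read 12.16 and 12.34 in NB shoot and 6.21 and 6.91 in IR64 shoot, detected on neither array, which put NB shoot at least 21.7-fold above IR64 shoot (-5.69 ± 0.32 SE, limma adjusted p = 5.6e-05). These bounds hold for the deposited background subtraction. With normexp background correction the differences were -3.85 and -3.20, or 14.4-fold and 9.17-fold, still past the threshold.

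Locus R10-00084R gave the same result on both designs, which are separate hybridisations. On S2 its probe R10-00084R_C read 14.13 and 14.41 in NB shoot and 8.26 and 8.39 in IR64 shoot, a difference of -5.95 ± 0.42 (SE, limma adjusted p = 0.0057). It was detected on 1 of 2 IR64 shoot arrays, as was E5_12665. On S1, E5_12665 read 13.73 and 13.64 against 8.04 and 8.31, and E5_12861 read 14.43 and 14.22 against 9.47 and 8.93. Their differences were -5.51 ± 0.33 (SE, limma adjusted p = 8e-05) and -5.12 ± 0.33 (SE, limma adjusted p = 1e-04). The closing numbers of the probe names, 554, 559 and 564, lie 5 apart, so the probes may share sequence and are not independent measurements of the locus.

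R07-00219R_C read 12.26 and 12.09 in NB shoot and 7.96 and 8.47 in IR64 shoot (-3.95 ± 0.40 SE, limma adjusted p = 0.00073), and both groups were detected on every array. The remaining called members were lower by 1.96 to 2.68, namely R12-00177F_C, R08-00370F_C, R10-00166R_C and E5_12230. Among them R08-00370F_C, which has the second largest margin, was still well above root and callus in IR64 shoot, at 11.88 and 12.49. E5_12230 belongs to locus R04-00221F, whose 9 probes did not behave alike. E5_09623, not a member, was also called (-2.01 ± 0.37 SE). The member E5_11842, on S2, differed by more in the same direction (-2.56 ± 0.49 SE) but was not called. R04-00221F_C and E5_08773 differed by -0.52 ± 0.35 and -0.51 ± 0.34 (SE) and were not called. A further 11 members were lower in IR64 shoot by 1 or more without passing the test and 6 were higher. R02-00753F_C was the third member that was detected on no IR64 shoot array, with a mean of 8.47 against 9.62 in NB shoot, and its difference was not called.

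The one member called higher in IR64 shoot was E5_07139 of locus R10-00350R on chromosome 10. It read 11.51 and 11.81 in NB shoot and 14.91 and 15.44 in IR64 shoot, a difference of 3.52 ± 0.54 (SE, limma adjusted p = 0.0071). It also leaned to panicle, which read 13.10 and 14.58, so IR64 shoot was above NB panicle on every array. Other probes of the locus, none of which is a member, were called higher in IR64 shoot too. With names closing in 371 and 391, E5_06061 and E5_06562 differed by 3.90 ± 0.34 and 2.71 ± 0.39 (SE), and on S2 E5_06834 (401) differed by 2.87 ± 0.42 (SE). E5_07448 (421) and E5_07797 (431) were detected on no NB shoot array and on both IR64 shoot arrays, where their means were 13.29 and 13.91. IR64 shoot was at least 37.5-fold and at least 57.7-fold above NB shoot on these probes (limma adjusted p = 0.0057 for each). E5_06294 (381) was higher by 1.72 ± 0.42 (SE) and was not called. E5_11002 (517) and R10-00350R_C (504) differed by -0.08 ± 0.57 and -0.21 ± 0.75 (SE). The probes of this locus thus did not behave alike, and 1 of 10 met the rule.

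More than 1 member was found at 10 of the member loci, with 36 probes in all, and 82 loci held 1. Of the 92 loci, 71 had a single COMM probe on the arrays (the probe names hold either COMM or SPEC, which the files do not define, nor do they define the number that closes a name). The other 21 loci had 138 COMM probes, 47 of them members. At 3 loci every COMM probe was a member, and at 18 some were not.

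The fullest was R02-00332F on chromosome 2, where all 7 probes were members, 3 on S1 and 4 on S2. On every probe NB shoot and IR64 shoot were at the cap. NB panicle ran from 15.04 to 15.65, NB root from 10.72 to 11.99 and NB callus from 10.96 to 11.85. The margin lay between 3.44 and 4.09 over the closing numbers 67 to 127. R01-00435R, with 3 members of 3, had margins from 4.29 to 4.59 and was at the cap in both shoots as well.

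R06-00072R on chromosome 6 showed how a threshold divides like values. Its 6 probes on S1 were all members, with margins from 3.20 to 3.56, and its 4 probes on S2 were not, with margins from 2.53 to 2.77. Root was the brighter of the dim tissues on all 10 probes. On S1 the probe R06-00072R_C read means of 16.21 in NB shoot, 14.51 in NB panicle, 11.11 in NB root and 9.05 in NB callus. On S2 E5_05967, with closing number 367, read 15.88, 13.49, 10.76 and 8.40 in the same order. The order of the tissues was the same, with the margin lower on S2.

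Elsewhere the pattern changed with the closing number. At R11-00025F on chromosome 11 the members were R11-00025F_C on S1 and E5_01378 on S2, whose names close in 9 and 36. R11-00025F_C read 11.98 and 11.88 in NB shoot, 13.96 and 13.76 in NB panicle, and was not detected in root or callus, which put panicle at least 119.5-fold and shoot at least 31.3-fold above callus. The other 8 COMM probes, closing in 166 to 366, were bright in callus as well, with callus means from 14.39 to 16.53, and their margins ran from -0.28 to 1.59. On these 8 probes root was the dimmest tissue. At this locus the probes with the lowest closing numbers separated shoot and panicle from callus and the other 8 did not.

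At R09-00476R the levels differed widely between probes. R09-00476R_C, closing in 32, had an NB shoot mean of 8.27 and a margin of 0.42. E5_01910 (121) had 12.31 and 1.84, and E5_12088 (544) had 13.26 and the largest margin of the locus, 4.25. NB shoot was the brightest NB tissue at all 10 probes, and 3 of them were members. R01-01005R, on chromosome 1, had 4 members of 9 probes with margins from 0.87 to 3.87. Shoot was at the cap on 8 of the 9, root ran from 10.77 to 15.74, and root lay above callus on all 9.

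**Figure D4:**
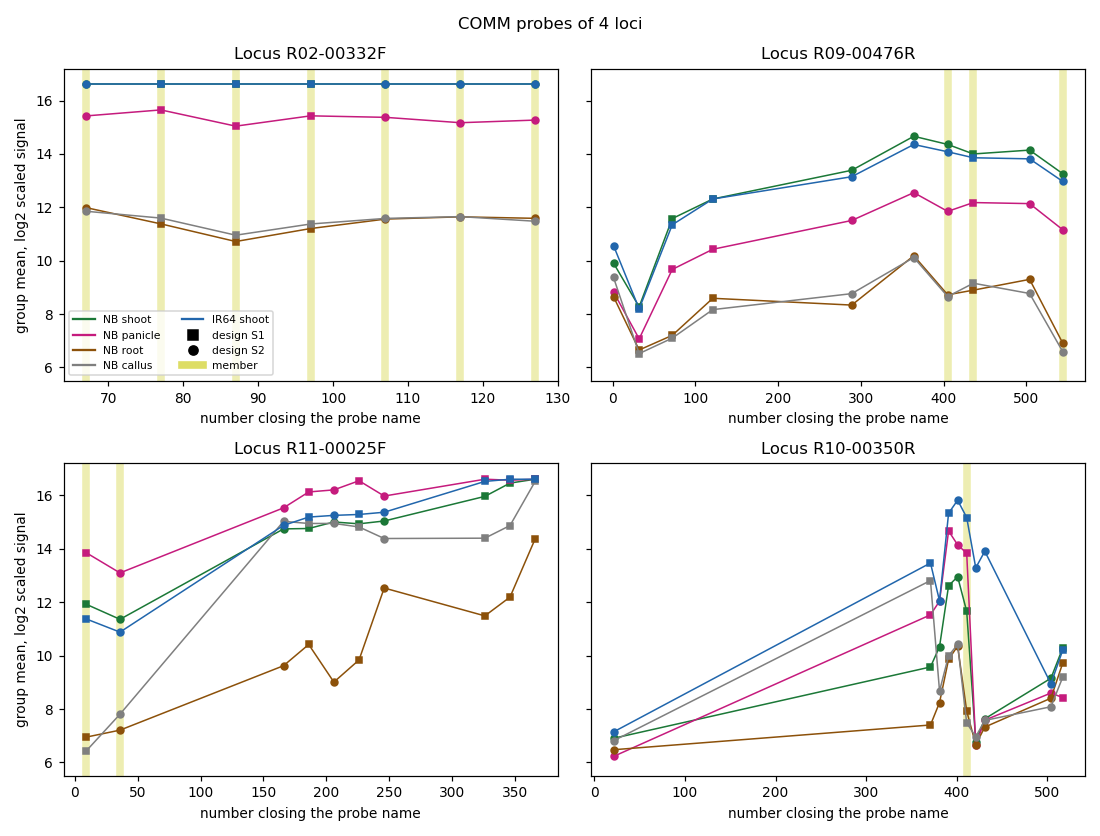
Group mean level (log2 scaled signal) of the COMM probes of 4 loci against the number that closes the probe name, with squares for S1, circles for S2 and shaded bars at members. R02-00332F is even along its 7 probes, shoot and panicle of R09-00476R are dimmest at its 2 lowest closing numbers, callus joins the bright tissues beyond the first 2 probes of R11-00025F, and IR64 shoot rises alone at closing numbers 421 and 431 of R10-00350R.

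Since the 2 designs were hybridised separately, probes of a member locus on the other design were measured on arrays that did not choose it. The loci chosen on S1 had 52 cDNA probes on S2, from 16 loci, of which 15 (28.8%) met the rule there and 46 (88.5%) had a margin above 0, with a median of 2.46. Over all cDNA probes of S2, 0.296% met the rule and 18.2% had a margin above 0. The loci chosen on S2 had 42 cDNA probes on S1, from 13 loci, of which 13 (31.0%) met the rule and 32 (76.2%) had a margin above 0, with a median of 2.43, beside 0.415% and 17.1% of all cDNA probes of S1. These probes share their target with the members, and 8 loci with members on both designs enter both counts.

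Of all 91 COMM probes of the member loci that were not members, 69 had a margin above 0 and 36 one of 2 or more, with a median of 1.57. The 2 that passed 3 were R01-00525R_C and E5_11938 of locus R01-00525R, which failed only because panicle was 3.41 and 3.46 above shoot. The 15 SPEC probes of the member loci, from 10 loci, had margins from -1.31 to 3.49 with a median of 0.22, and 1 of them, R02-00571R_S1, reached 3.

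**Figure D5:**
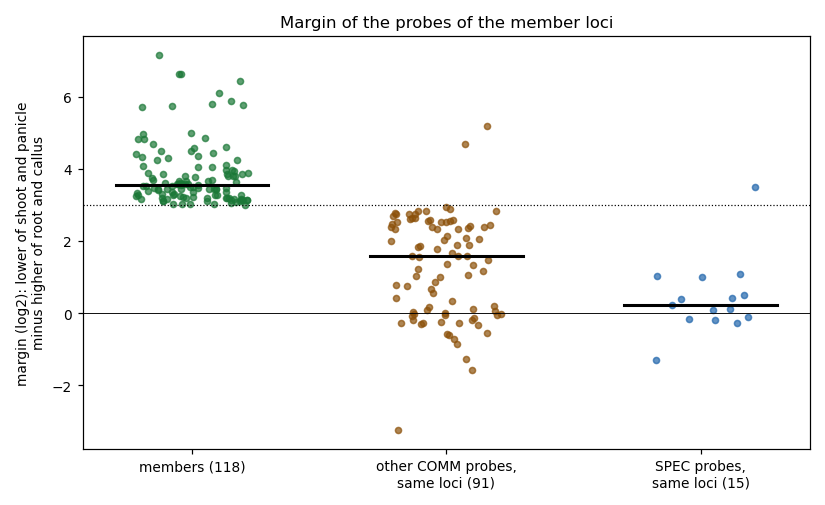
Margin (log2) of the 118 members, of the 91 other COMM probes and of the 15 SPEC probes of the same 92 loci, with 1 point per probe and a bar at each median (3.56, 1.57 and 0.22). The dotted line marks the threshold of 3, which the members pass by selection, and 2 other COMM probes and 1 SPEC probe lie above it.

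The member loci were spread over all 12 chromosomes. Chromosome 3 held 17 of the 92 loci (18.5%) beside 13.2% of the cDNA loci, chromosome 1 held 10 (10.9%) beside 14.6%, and the others held 4 to 11. The closing letters F and R stood at 46 loci each. Locus numbers lay within 5 of each other in 6 pairs of member loci, 12 loci in all, and no locus was in more than 1 pair. The closest pair was R06-00304R and R06-00305R, which are 1 apart on chromosome 6. R06-00304R_C was at the cap in NB shoot, read 16.18 in panicle, 11.01 and 12.12 in root and 9.96 and 10.85 in callus, so both neighbours were at the cap in shoot and both had a higher mean in root than in callus.

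The other pairs were R07-00376F and R07-00378F, R07-00707R and R07-00710R, R03-00610F and R03-00613R, R02-00937F and R02-00941R, and R11-00021R and R11-00025F. R07-00376F_C read 15.24 and 15.16 in NB shoot and 14.19 and 14.16 in NB panicle, a difference of 1.02 beside the 2.94 of R07-00378F_C. R02-00937F_C and R02-00941R_C were both at the cap in both shoots, with panicle at 16.60 for the first and at 15.69 and 15.92 for the second. In the last pair R11-00025F_C was higher in panicle by 1.93 on the log2 scale, while R11-00021R_C read 15.13 and 15.55 in shoot and 14.44 in panicle. Probes of neighbouring loci were not tested for shared sequence.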

How the data were processed

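Rice total RNA was measured on 19 self-hybridised 2-colour Agilent arrays of 60-mer probes (10 of design S1, 9 of S2). Feature Extraction 8.1.1.1 was used by the authors per the file headers, and the deposited processed signal intensity is background-subtracted and dye-normalised within an array, not between arrays. Flags were taken as deposited. A spot was well above background when it differed from background at p 0.01 and exceeded 2.6 SD. The 2 deposited value tables of the series and the log ratios, fold and p-value columns were not used.

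Here control spots and outlier-marked spots were left out, and saturated spots kept. Signals were scaled to a median of 1000 per array and channel, capped at 100000, put on the log2 scale and averaged over channels. Two-sided moderated tests (limma 3.58.1, R 4.3.3) came from 1 fit per design to its 5 groups, over 72985 probes detected on every array of at least 1 group. All 118 members were among them. P-values were adjusted by Benjamini-Hochberg for each contrast on each design. A call needs an adjusted p under 0.05, and counts sum S1 and S2. On S2 the single panicle array is assumed to vary like the other groups. The fit was tested on simulated arrays. The number of arrays limits the precision.

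The members and the naming rule were chosen with earlier results of these data known. Named were the 10 loci with the largest margin, 4 per lean toward shoot or panicle, up to 4 called per direction between varieties, 3 on each side of the threshold and loci within 5 numbers of each other, 1 probe per locus. Other names were chosen after their values were seen. Python 3.11.15, numpy 2.4.6, pandas 2.3.3 and matplotlib 3.10.9 were used. Alternatives covered scaling, background correction, the cap, the filter, the margin, replicates, the replicate block and the scan date.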

Additional observations from a re-analysis of the deposited data

How the results depend on the processing

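The set of members depended on the margin, with 368 probes at 2 and 31 at 4, and on background correction. With normexp, loess and Aquantile 84 probes met the rule, of which 40 were among the 118. Leaving out 1 replicate gave 100 to 150 probes over both designs, with 100 without NB root replicate 1 and 150 without NB root replicate 2. Without NB panicle replicate 1 S2 has no panicle array. On S1 89 probes then met the rule in place of 67, and 66 of the 89 were members. Calls of members lower in IR64 shoot numbered 10, and 4 when only the 2 groups compared were fitted. Over all tested probes the calls lower in IR64 shoot then fell from 982 to 126. Leaving out 1 replicate gave 5 to 10, with 5 without either NB shoot replicate and 6 without IR64 shoot replicate 1, where a lone array is assumed to vary like the other groups. Calls higher in IR64 shoot numbered 1, and 0 when only the groups compared were fitted. They were 2 with quantile normalization, 2 with the scan date as a block and 3 with normexp. Over all tested probes the counts were 278, 5, 446, 461 and 543, in the same order. The 1 call was lost in some fits with a replicate left out. Calls between NB shoot and NB panicle numbered 29, and 45 without the cap, 81 with normexp and 9 to 35 with a replicate left out. Of the called members 69.0% were higher in shoot, 80.0% without the cap and 79.1% with quantile normalization. The share was 86.4% with normexp and 61.5% with the scan date as a block. For all called probes it was 40.0%, 41.1%, 43.6%, 42.6% and 41.3%, in the same order. Scaling to the 75th percentile shifted the median difference of all tested probes between shoot and panicle from 0.05 to 0.29 on S1. It gave 41 calls of members (78.0% higher in shoot). Among all probes called between shoot and panicle, the share that was higher in shoot rose from 40.0% to 50.2%. Members called in all 4 contrasts of the rule, which also chose them, numbered 107. Over both designs the number was lower in most fits with a replicate left out. This count was added after seeing the data, as was keeping outlier spots. Keeping those spots left the 5 counts unchanged where run. The cause of these changes was not tested.

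With the replicate number as a block, 49 members (41.5%) were called between shoot and panicle in place of 29 (24.6%), while the share of all tested probes rose from 15.9% to 31.1%. With the block and quantile normalization they were 62 (52.5%), beside 32.9%. The block gave 15 members lower and 1 higher in IR64 shoot, and 15 and 2 with quantile normalization. The share of all tested probes called lower rose from 1.35% to 2.98%. Only 2 numbers exist and the labels do not say what a number shares, so the pairing was not established, although the replicate 2 arrays share a scan date. The deviations of same-numbered arrays correlated at 0.11 to 0.64 on S1 and at 0.55 to 0.83 on S2. The 5 variety differences followed through 19 or 20 alternatives kept their direction in all of them, but not their size. With normexp R05-00007R_C moved from -5.69 to -3.20 and R11-00318R_C from -6.49 to -3.85. R05-00007R_C and R07-00219R_C stayed past the threshold in each, E5_07139 missed it in 4, and R10-00084R_C and R11-00318R_C in 5 each. Brightness at the cap limits every difference between bright members.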
